A study of Mus musculus with 8 samples.

Results

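A set of 9 genes of lipoprotein lipid uptake was followed in the ovaries of obese Lethal Yellow (LY) mice: Angptl4, Angptl2, Lpl, Lipc, Vldlr, Cd36, Olr1, Apoe and Lrp1. They were taken by gene symbol from the array annotation, which names 7 probes for 6 of the 9 genes, of 36227 probes on the array. Vldlr has 2 probes and Angptl4, Lpl, Lrp1, Olr1 and Apoe have 1 each. No probe carried the symbols Angptl2, Lipc or Cd36 in the annotation used, and these 3 genes were not analysed here. All 7 probes passed the filter on dim signals, and all 7 exceeded 0.2 on all 8 arrays, which the methods give as the detection limit in relative intensity units.

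Pioglitazone-treated female LY mice (n = 4) were compared with vehicle-treated female LY mice given DMSO (n = 4), by daily gavage for 60 days, from 120 to 180 days of age. Both groups were heterozygous for the Ay allele of the agouti locus (C57BL/6J Ay/a), which causes adult-onset obesity and insulin resistance. These arrays held no lean or untreated mice. Per the methods, all mice were fasted overnight before the ovaries were taken. The daily dose was 0.1 mg in the labels and 0.01 mg in the methods. Each array held RNA of 1 whole ovary of 1 mouse, trimmed of fat, and neither the stage of the estrous cycle nor the cage of each mouse was given. Arrays correlated at 0.949 to 0.987 (log2 values across probes), and 82.5% to 83.9% of the probes on an array reached 0.2. Oocyte markers (10 of 11 with a probe at 0.2 or more on every array), granulosa markers (9 of 10) and luteal markers (8 of 8) were present in this tissue. Of 5 hepatocyte markers with a probe, 4 reached 0.2 on every array and Alb reached it on none. In whole ovary, fewer cells of a type and less RNA per cell cannot be told apart.

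Circulating lipoproteins carry triglyceride and cholesterol into tissues. Lipoprotein lipase, encoded by Lpl, frees fatty acids from triglyceride-rich particles at the capillary wall, and the secreted protein Angptl4 inhibits it. Fasting, hypoxia, glucocorticoids and ligands of the peroxisome proliferator-activated receptors (PPAR) are known to induce Angptl4 in other tissues. The VLDL receptor (Vldlr) and LRP1 (Lrp1) take up particles that carry apolipoprotein E (Apoe), and Olr1 encodes LOX-1, a receptor for oxidized LDL. In the ovary, cholesterol from lipoproteins is a substrate for steroid synthesis. Pioglitazone is a thiazolidinedione (TZD), a class of insulin-sensitizing drugs that bind PPARγ.

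Promoter sequences were found in RefSeq (build GRCm38.p6) for 7 of the 9 genes, with no entry for Angptl4 and Lpl. Shown are 250 bases before the start of Olr1, whose 2 groups did not overlap, and of Lrp1 and Vldlr, where Lrp1 and 1 of the 2 Vldlr probes ran in opposite directions across mice. The Olr1 window is chr6:129507166-129507415 (minus strand), the Lrp1 window chr10:127621149-127621398 (minus strand), and the Vldlr window, 1 of 2 listed, chr19:27216770-27217019 (plus strand). Capitals mark AGGTCA, a core site of nuclear receptors such as PPAR, and GGGCGG, a GC box, on either strand.
Olr1: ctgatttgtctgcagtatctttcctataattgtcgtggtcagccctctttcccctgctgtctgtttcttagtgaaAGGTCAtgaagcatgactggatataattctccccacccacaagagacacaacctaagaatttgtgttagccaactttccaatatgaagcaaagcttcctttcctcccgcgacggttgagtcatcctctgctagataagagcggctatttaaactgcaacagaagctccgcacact
Lrp1: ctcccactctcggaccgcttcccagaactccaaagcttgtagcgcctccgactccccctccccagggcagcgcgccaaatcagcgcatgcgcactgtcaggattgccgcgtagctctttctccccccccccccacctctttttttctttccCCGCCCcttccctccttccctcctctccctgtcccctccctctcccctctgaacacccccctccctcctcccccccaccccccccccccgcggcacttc
Vldlr: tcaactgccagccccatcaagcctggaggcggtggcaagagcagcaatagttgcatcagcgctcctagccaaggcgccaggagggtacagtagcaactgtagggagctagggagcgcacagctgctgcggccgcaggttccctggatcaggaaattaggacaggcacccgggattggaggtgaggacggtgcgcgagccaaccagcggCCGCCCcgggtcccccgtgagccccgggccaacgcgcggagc
The Olr1 window held 1 AGGTCA, 175 bases before the start, a motif found in 14.0% of 32851 promoter windows of this length. The Lrp1 window held GGGCGG on the other strand 99 bases before the start and the Vldlr window 42 bases before it, and 32.7% of all windows hold that motif. A direct repeat of AGGTCA with 1 base between the copies, the arrangement known for PPAR with RXR, contains the shorter motif. It was in no window of these genes and in 0.0335% of all windows. Of 2 further motifs searched on both strands, TATAAA was found only in 1 of the several Apoe windows (12.4% of all windows). ACGTG was in none of these genes (16.6% of all windows). AGGTCA was also in windows of Cd36 and Lipc, and GGGCGG in windows of Angptl2, Cd36 and Lipc. The other Vldlr window held none of the motifs. A match is a description of letters and not evidence of binding.

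Angptl4 had the largest log2 difference between the groups among the 7 probes. Its signal was 34.0, 34.8, 30.3 and 45.1 relative intensity units in pioglitazone mice 1 to 4, against 52.5, 67.3, 57.3 and 47.5 in vehicle mice 1 to 4. All 4 pioglitazone-treated mice lay below all 4 vehicle-treated mice, with a gap of 2.37 units between pioglitazone mouse 4 and vehicle mouse 4. The mean was 36.1 ± 6.3 in pioglitazone-treated and 56.1 ± 8.4 in vehicle-treated mice (SD, n = 4 each). The log2 fold change was -0.64 (standard error 0.17, 95% interval -1.03 to -0.25), which is 0.489-fold to 0.840-fold. Angptl4 had the 73rd smallest unadjusted p of 30634 probes tested (0.00459), but an adjusted p of 0.837 in limma with Benjamini-Hochberg adjustment. No probe on the array passed an adjusted p of 0.05. An exact permutation test (2-sided, 70 arrangements of the 8 mice) gave p = 0.0286, the smallest that 4 against 4 mice allow. Angptl4 is among the genes that the study selected on these same samples, so that its difference is not independent evidence.

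Of the 7 probes, 1 (Angptl4) was called in limma at unadjusted p under 0.05, where 5.5% of all probes tested were called (3.53% lower and 1.97% higher). Of the 7, 2 (Angptl4 and Olr1) had groups that did not overlap, both lower with pioglitazone, where 3.13% of all probes tested were lower in this way and 4.59% did not overlap in either direction. The median log2 fold change of all probes tested was -0.03. With group means removed, arrays with the same number correlated at 0.181 to 0.515, and pioglitazone 3 with vehicle 2 at 0.369. The labels state no pairing. With the number as a block limma called 2 of the 7, Angptl4 (unadjusted p = 0.0106) and Lrp1 (0.0403), both lower. The block called 8.6% of all probes (5.2% lower and 3.4% higher). Paired by number, Angptl4 was lower in the pioglitazone mouse of each of the 4 pairs, with log2 differences of -0.62, -0.95, -0.92 and -0.07 for numbers 1 to 4. The difference was therefore small in pair 4. Lrp1 and Olr1 were also lower in all 4 pairs. For Angptl4 and Olr1 any pairing of the mice would give this, since their groups did not overlap. The share of all probes that were lower in all 4 pairs was not computed.

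**Figure D1:**
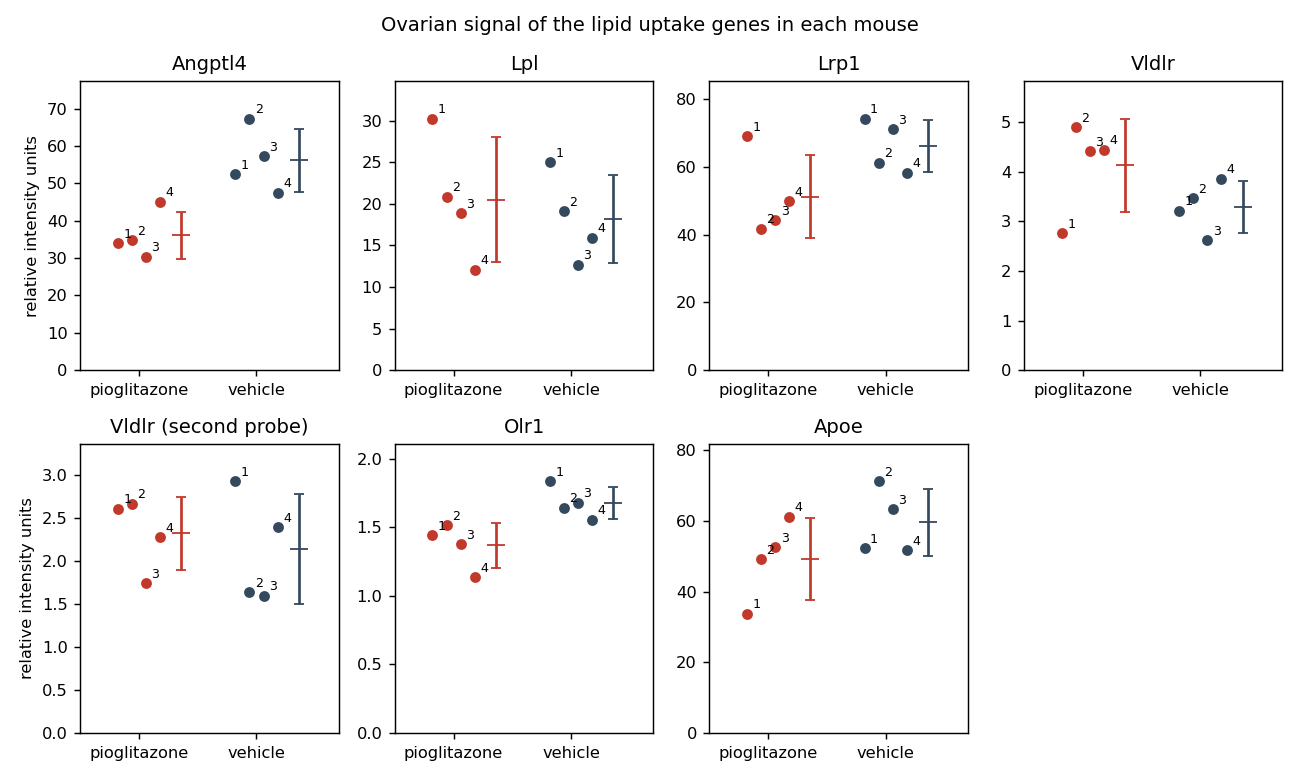
Relative intensity units of each probe (linear axes from 0) in every pioglitazone-treated (red) and vehicle-treated (blue) LY mouse. Points are mice with their numbers and bars are mean ± SD (n = 4). Angptl4 and Olr1 have no overlap between groups, and pioglitazone mouse 1 stands near the vehicle-treated mice in Lrp1 (69.1) and Vldlr (2.76).

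Lpl, the enzyme that Angptl4 inhibits, showed no separation of the groups. Its signal was 30.2, 20.8, 18.8 and 12.1 in pioglitazone mice 1 to 4, against 25.0, 19.1, 12.7 and 15.9 in vehicle mice 1 to 4. Pioglitazone-treated mice held both the highest and the lowest value. The mean was 20.5 ± 7.5 in pioglitazone-treated and 18.2 ± 5.2 in vehicle-treated mice (SD, n = 4 each), with a log2 fold change of 0.14 (95% interval -0.53 to 0.81, adjusted p = 0.946 in limma). This interval runs from 0.694-fold to 1.76-fold, so that a difference in either direction within it was not excluded here. The sign turned to -0.07 without pioglitazone replicate 1 and to -0.02 without vehicle replicate 3.

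Adipocytes express Lpl strongly, and adipocyte markers differed between mice. Their summed signal over the 8 of 10 markers with a probe was 127, 31.1, 38.0 and 16.0 in pioglitazone mice 1 to 4, against 30.2, 69.8, 39.0 and 27.2 in vehicle mice 1 to 4. Of the 8 markers, 5 were at 0.2 or more on every array, and 0 of the 7 tested were called. With the number as a block 1 was called, Cidea, higher, where 3.4% of all probes tested were called higher. Cidea lay around the limit of 0.2, with means of 0.2114 in pioglitazone-treated and 0.1545 in vehicle-treated mice. It passed the filter only through the pioglitazone-treated group. Adipoq, which encodes adiponectin, was 40.2 in pioglitazone mouse 1 and between 1.54 and 7.19 in the other pioglitazone-treated mice. The highest Lpl and adipocyte signals were both in pioglitazone mouse 1, and the lowest of both in pioglitazone mouse 4. Across the 8 mice, log2 Lpl and the mean log2 marker signal had r = 0.82 (exact permutation p = 0.0129) and Spearman's rho = 0.81 (exact permutation p = 0.0218). Without the 2 mice farthest from the median marker signal r was 0.84, and with group means removed 0.83. Over the 30 relations of the 6 genes with 5 cell type lists this had adjusted p = 0.386 for r and 0.653 for rho, and no other relation had a smaller exact permutation p. Angptl4 had r = -0.07 and rho = -0.05 with the adipocyte markers (exact permutation p = 0.865 and 0.935), and r = 0.24 and rho = 0.48 with the luteal markers (exact permutation p = 0.562 and 0.243). The part of adipocyte RNA in the Lpl signal was not tested.

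Lrp1, a large endocytic receptor, was 69.1, 41.8, 44.3 and 49.8 in pioglitazone mice 1 to 4, against 74.3, 61.3, 71.2 and 58.3 in vehicle mice 1 to 4. In all, 3 of the 4 pioglitazone-treated mice lay below all vehicle-treated mice, and pioglitazone mouse 1 lay among them. The mean was 51.3 ± 12.4 in pioglitazone-treated and 66.3 ± 7.7 in vehicle-treated mice (SD, n = 4 each). The log2 fold change was -0.39 (95% interval -0.81 to 0.03, unadjusted p = 0.0642 and adjusted p = 0.837 in limma, exact permutation p = 0.0857). Without pioglitazone replicate 1, the mouse with the most adipocyte signal, it was -0.54 (unadjusted p = 0.00754, adjusted p = 0.605). With each of the other arrays left out it was not called, and nearest to 0 at -0.30 without pioglitazone replicate 2 (unadjusted p = 0.167), and it was -0.22 with quantile normalization.

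Vldlr, the receptor for triglyceride-rich particles, differed between its 2 probes. The brighter probe was 2.76, 4.90, 4.41 and 4.45 in pioglitazone mice 1 to 4, against 3.21, 3.46, 2.62 and 3.86 in vehicle mice 1 to 4. Of the pioglitazone-treated mice, 3 lay above all vehicle-treated mice, and pioglitazone mouse 1 was the second lowest of all. The log2 fold change was 0.31 (95% interval -0.17 to 0.78, unadjusted p = 0.176 and adjusted p = 0.860 in limma), and 0.49 without pioglitazone replicate 1 (unadjusted p = 0.0185, adjusted p = 0.605). With each of the other arrays left out it was not called, and nearest to 0 at 0.21 without vehicle replicate 3 (unadjusted p = 0.365). The second probe was 2.61, 2.66, 1.74 and 2.27 in pioglitazone mice 1 to 4, against 2.92, 1.64, 1.60 and 2.39 in vehicle mice 1 to 4, and its groups overlapped throughout (log2 fold change 0.15, adjusted p = 0.928 in limma). The 2 probes were only loosely related across mice (r = 0.16 and rho = 0.24, exact permutation p = 0.700 and 0.582), and ordered the mice differently.

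Lrp1 and the brighter Vldlr probe ran in opposite directions across the 8 mice, with r = -0.93 (exact permutation p = 0.00201) and rho = -0.91 (exact permutation p = 0.00456). Over the 15 pairs of the 6 genes, the adjusted p was 0.0301 for r and 0.0685 for rho. These p-values took the 8 mice as exchangeable, without regard to group or number. The relation had r = -0.89 without the 2 mice farthest from the median of Lrp1 and -0.92 with group means removed. The second Vldlr probe had r = 0.04 and rho = 0.00 with Lrp1 (exact permutation p = 0.927 and 1.0), a comparison made after the first was seen. Among the other 14 pairs, the smallest adjusted p for r was 0.214, for Apoe with Angptl4 (r = 0.70, exact permutation p = 0.0404) and for Apoe with Lpl (r = -0.71, exact permutation p = 0.0428).

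**Figure D2:**
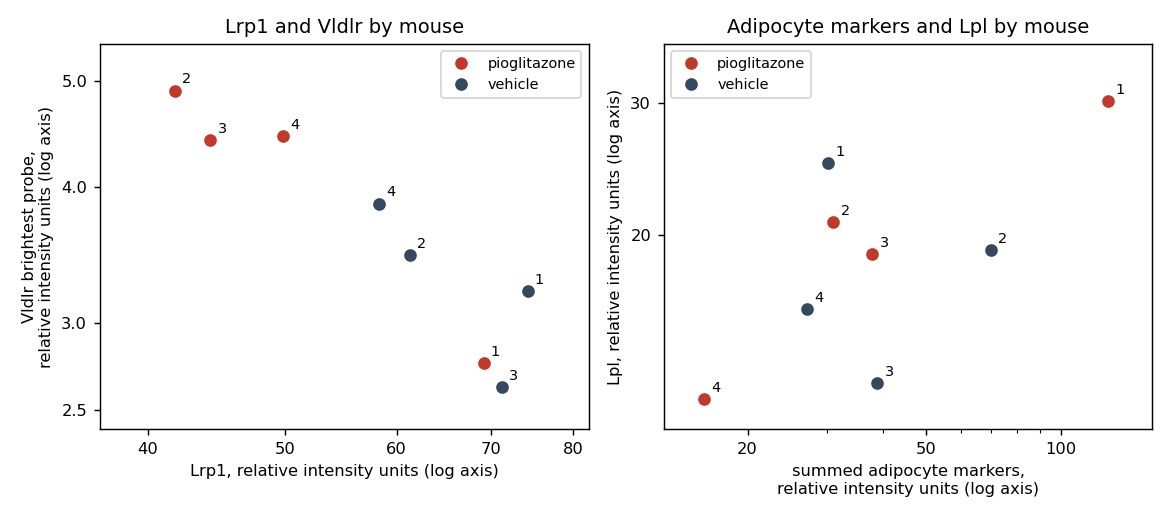
Left, Lrp1 against the brighter Vldlr probe, and right, summed adipocyte markers against Lpl, in relative intensity units on log axes. Points are the 4 pioglitazone-treated (red) and 4 vehicle-treated (blue) mice with their numbers, and Vldlr is lower where Lrp1 is higher (r = -0.93), while pioglitazone mouse 1 is highest in both adipocyte markers (127) and Lpl (30.2).

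Olr1, the receptor for oxidized LDL, was 1.44, 1.52, 1.38 and 1.14 in pioglitazone mice 1 to 4, against 1.84, 1.64, 1.68 and 1.56 in vehicle mice 1 to 4. All 4 pioglitazone-treated mice lay below all 4 vehicle-treated mice, by a gap of 0.0403 units. The mean was 1.37 ± 0.17 in pioglitazone-treated and 1.68 ± 0.12 in vehicle-treated mice (SD, n = 4 each), with a log2 fold change of -0.30 (95% interval -0.62 to 0.02). The exact permutation p was 0.0286, while limma gave an unadjusted p of 0.063 and an adjusted p of 0.837. The methods' t-test on the same values gave an unadjusted p of 0.0276 and an adjusted p of 0.705.

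Macrophages and endothelial cells are known sources of LOX-1. The summed macrophage signal over 9 of 12 markers was 92.9 to 125 in pioglitazone-treated and 104 to 153 in vehicle-treated mice, with 8 of the 9 markers at a negative log2 fold change and 0 called. Among the 8, Adgre1 passed the filter only through the vehicle-treated group, with means of 0.1825 in pioglitazone-treated and 0.2308 in vehicle-treated mice. With the number as a block 2 of the 9 were called, C1qa and Fcgr1, both lower. Olr1 and the macrophage markers had r = 0.75 (exact permutation p = 0.0293, adjusted p = 0.440) and rho = 0.62 (exact permutation p = 0.115, adjusted p = 0.720), and r = 0.51 without the 2 mice farthest from the median marker signal. The summed endothelial signal over 12 of 12 markers was 70.8 to 85.2 in pioglitazone-treated and 61.8 to 105 in vehicle-treated mice, with 1 of the 10 tested called, and it was lower. The block added Cldn5, which was higher. Of the 12, 2 were under 0.2 on every array. Olr1 and the endothelial markers had r = -0.29 and rho = -0.405 (exact permutation p = 0.489 and 0.327). Of all probes tested, limma called 5.5%, and 8.6% with the block, and 55.7% had negative log2 fold changes. The part of macrophages and endothelial cells in the Olr1 signal was not tested.

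Apoe, the ligand of both receptors, was 33.8, 49.3, 52.7 and 61.3 in pioglitazone mice 1 to 4, against 52.3, 71.2, 63.3 and 51.7 in vehicle mice 1 to 4. The groups overlapped, with pioglitazone mice 1 and 2 below all vehicle-treated mice. The mean was 49.2 ± 11.5 in pioglitazone-treated and 59.6 ± 9.4 in vehicle-treated mice (SD, n = 4 each), with a log2 fold change of -0.30 (95% interval -0.76 to 0.17, adjusted p = 0.860 in limma). Without pioglitazone replicate 1 the log2 fold change was -0.13, and with quantile normalization -0.11. The lowest Apoe signal was in pioglitazone mouse 1, which also had the lowest summed luteal signal (145, against 275 to 413 in vehicle-treated mice). The other pioglitazone-treated mice had luteal sums of 295, 365 and 248, and the last of these, mouse 4, had the highest Apoe of its group. Across the 8 mice, Apoe and the luteal markers had r = 0.61 (exact permutation p = 0.094, adjusted p = 0.470) and rho = 0.67 (exact permutation p = 0.0831, adjusted p = 0.720). The part of luteal cells in the Apoe signal was not tested. Of 8 luteal markers, 7 had negative log2 fold changes (median -0.54), with 0 called and 4 called lower with the number as a block (Star, Cyp11a1, Akr1c18 and Scarb1). All 9 granulosa markers tested had positive ones (median 0.32), with 1 called (Fst) and 2 with the block (Fst and Nr5a2). Of all probes tested, 55.7% had negative log2 fold changes, and limma called 3.53% lower and 1.97% higher. With the block it called 5.2% lower and 3.4% higher. The part of the luteal and granulosa differences in the values of the 7 probes was not tested.

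**Figure D3:**
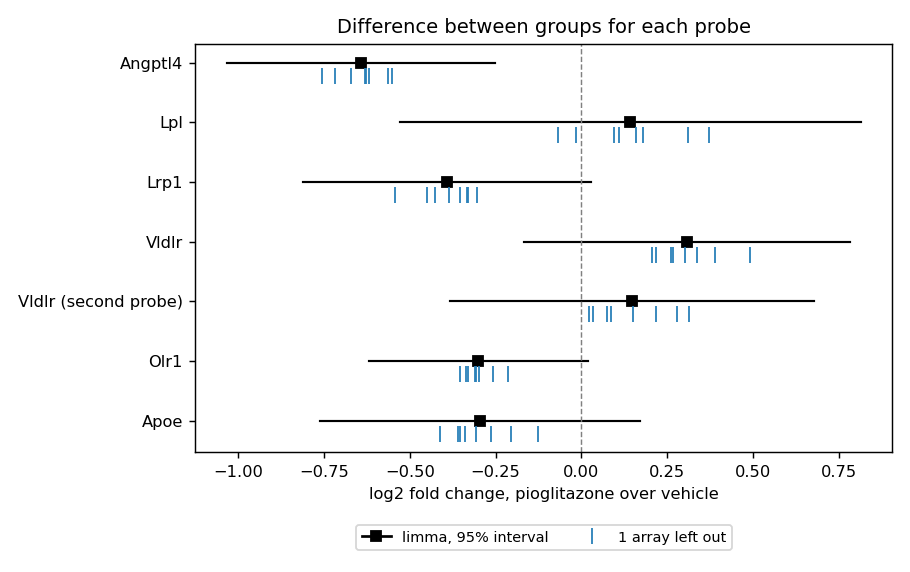
Log2 fold change of pioglitazone over vehicle for each probe. Squares and lines are limma estimates with 95% intervals, and blue ticks are the estimates with 1 array left out. The interval of Angptl4 lies below 0 (-1.03 to -0.25), and the ticks of Lpl fall on both sides of 0.

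Other genes that control lipoprotein lipase had 1 member at unadjusted p under 0.05 of 17 tested, and it was lower with pioglitazone. This share is near the 5.5% called among all probes tested. The gene was Angptl8, a relative of Angptl4 that takes part in the control of the lipase. Angptl8 was 0.558, 0.425, 0.577 and 0.303 in pioglitazone mice 1 to 4, against 0.699, 0.932, 1.17 and 0.470 in vehicle mice 1 to 4. Only vehicle mouse 4 lay within the range of the pioglitazone-treated mice. The means were 0.466 ± 0.128 in pioglitazone-treated and 0.818 ± 0.302 in vehicle-treated mice (SD, n = 4 each). The log2 fold change was -0.78 (unadjusted p = 0.032, adjusted p = 0.837 in limma). The call of Angptl8 was lost without pioglitazone replicate 2 or 4 or vehicle replicate 2 or 3 (log2 fold changes of -0.75, -0.59, -0.69 and -0.58). It was also lost with array weights (-0.50), the methods' t-test and a test on linear values. With the number as a block, limma called Angptl8 (unadjusted p = 0.00325), where 5.2% of all probes tested were called lower.

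Negative log2 fold changes were found for 12 of the 17 genes, and the median was -0.15, where 55.7% of all probes tested were negative, with a median of -0.03. Gpihbp1, the capillary anchor of the lipase, had means of 2.33 ± 0.91 in pioglitazone-treated and 2.27 ± 1.03 in vehicle-treated mice (SD, n = 4 each). Apoc2, the activator of the lipase, had means of 1.42 ± 0.51 in pioglitazone-treated and 1.91 ± 1.14 in vehicle-treated mice (SD, n = 4 each). Pcsk5, a proprotein convertase, was called with the number as a block (log2 fold change -0.71, unadjusted p = 0.0304) and not without it (0.321). Its estimate moved widely with 1 array left out, between -1.29 without pioglitazone replicate 3 (called) and -0.36 without pioglitazone replicate 4, and was 0.01 with array weights. Among other angiopoietin-like genes, Angptl1, Angptl6 and Angptl7 had log2 fold changes of 0.14, -0.17 and 0.05, and none of these 3 was called.

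Of 13 other lipoprotein receptor genes, 0 were called. Mylip encodes IDOL, a ubiquitin ligase that marks the LDL and VLDL receptors for degradation. Mylip was 3.31, 4.39, 3.70 and 3.57 in pioglitazone mice 1 to 4, against 3.04, 3.31, 1.87 and 3.01 in vehicle mice 1 to 4. All 4 pioglitazone-treated mice lay above all 4 vehicle-treated mice (log2 fold change 0.44, unadjusted p = 0.0548, adjusted p = 0.837 in limma), where 1.46% of all probes tested were separated upward. Mylip was called with quantile and cyclic loess normalization, array weights, the stricter filter and without vehicle replicate 2, and was 0.26 without vehicle replicate 3. Lrp12 had a log2 fold change of 0.28 (unadjusted p = 0.0795), and the methods' t-test and the test on linear values called it. With the number as a block, limma called Mylip (unadjusted p = 0.0433) and Lsr, the lipolysis-stimulated lipoprotein receptor, at a log2 fold change of -0.38 (0.0221). Without the block Lsr was called only without vehicle replicate 4 (-0.55), and it was -0.20 without pioglitazone replicate 4 and -0.19 with array weights.

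Of 10 scavenger receptor genes, 1 was called, against 5.5% of all probes tested (3.53% lower). It was Colec12, which encodes an endothelial scavenger receptor of the collectin family. Colec12 had means of 7.18 ± 0.64 in pioglitazone-treated and 9.11 ± 1.04 in vehicle-treated mice (SD, n = 4 each). Its log2 fold change was -0.34 (unadjusted p = 0.0400, adjusted p = 0.837 in limma). Its groups overlapped, and the call held without pioglitazone replicate 1 or vehicle replicate 4 and was lost without any 1 of the other 6 arrays (log2 fold changes between -0.34 and -0.28). The call was also lost with an intensity trend (-0.34) and with quantile or cyclic loess normalization (-0.26 in both). Scarb1, the receptor for HDL in steroid-producing cells, was 1.68 in pioglitazone mouse 1 and between 3.59 and 6.83 in the other pioglitazone-treated mice, against 5.15 to 7.49 in vehicle-treated mice. It was called with the number as a block (log2 fold change -0.72, unadjusted p = 0.0383) and without pioglitazone replicate 3 (-0.98), and was -0.30 without pioglitazone replicate 1 and -0.38 with array weights.

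Apolipoprotein and cholesterol efflux genes (15 tested) and fatty acid uptake and binding genes (15 tested) had 0 called, with medians of -0.01 and -0.03. In the apolipoprotein list, Apod (log2 fold change 0.31, adjusted p = 0.837 in limma) and Apom (-0.52, adjusted p = 0.837) ranked first by p. In the fatty acid list these were Acsl5 (-0.32, adjusted p = 0.837) and Acsl6 (-0.24, adjusted p = 0.844), both acyl-CoA synthetases. Apom lay around the limit of sensitivity of 0.2, with means of 0.169 in pioglitazone-treated and 0.231 in vehicle-treated mice. It passed the filter only through the vehicle-treated group, so its estimate and calls rest partly on values below the limit. Its log2 fold change was -0.14 with a floor of 0.2 and -0.26 without pioglitazone replicate 3. Acsl6 was called by the methods' t-test and on linear values, and was -0.16 with quantile normalization, -0.14 with cyclic loess normalization and -0.15 with array weights, which put Apod at 0.15. With the number as a block, limma called Apom (unadjusted p = 0.0317), Nr1h3, which encodes the liver X receptor LXRα (log2 fold change -0.44, unadjusted p = 0.0261), and Slc27a3, a fatty acid transport protein (-0.57, unadjusted p = 0.0224). Without the block, Apom was also called with array weights and without pioglitazone replicate 4, and Nr1h3 (-0.66) and Slc27a3 (-0.80) without vehicle replicate 4. Nr1h3 was -0.28 without vehicle replicate 3 and -0.10 with array weights. Slc27a3 was -0.33 without pioglitazone replicate 2, and -0.38 without vehicle replicate 3 and with array weights.

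Genes that share a known inducer with Angptl4 were examined as further lists. Of 15 PPAR target genes tested 0 were called, with a median log2 fold change of 0.00, 8 positive and 7 negative. Ucp3 (0.38, unadjusted p = 0.0679) and Cidec (-0.25, 0.256) had the smallest p. Ucp3 was called without pioglitazone replicate 3 (0.46) and was 0.24 without vehicle replicate 1. Cidec was called without pioglitazone replicate 1 (-0.41) and was -0.13 without pioglitazone replicate 4 and -0.16 with cyclic loess normalization. Plin2, a lipid droplet protein, had means of 5.69 ± 3.05 in pioglitazone-treated and 5.37 ± 1.35 in vehicle-treated mice, and Pdk4, a pyruvate dehydrogenase kinase, of 0.375 ± 0.178 in pioglitazone-treated and 0.384 ± 0.097 in vehicle-treated mice (SD, n = 4 each). Of 15 hypoxia-induced genes 0 were called, with a median of -0.02, and Car9, a carbonic anhydrase, at -0.44 (unadjusted p = 0.0545, and 0.0313 with the number as a block) and Egln1 (0.29, 0.343) had the smallest p. Car9 was also called with the stricter filter, an intensity trend, and without pioglitazone replicate 3, vehicle replicate 1 or vehicle replicate 4. Egln1 was 0.06 without pioglitazone replicate 3, 0.18 without vehicle replicate 1, 0.45 without pioglitazone replicate 1 or 4 and 0.56 with array weights. Of 12 glucocorticoid-induced genes 0 were called, with a median of -0.11, and Mt2 (-0.32, unadjusted p = 0.196) and Cebpd (-0.33, 0.301) had the smallest p. Both were called without pioglitazone replicate 1 (-0.49 and -0.64), while Mt2 was -0.18 without pioglitazone replicate 2 and Cebpd -0.16 without pioglitazone replicate 3. The estimate of Angptl4 was below that of every tested gene in these 3 lists. Since the study selected Angptl4 on these same samples, this order was favoured in advance, and the difference was not tested. In the other lists, Angptl8 (-0.78), Scarb1 (-0.72) and Pcsk5 (-0.71) had estimates below that of Angptl4 (-0.64).

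**Figure D4:**
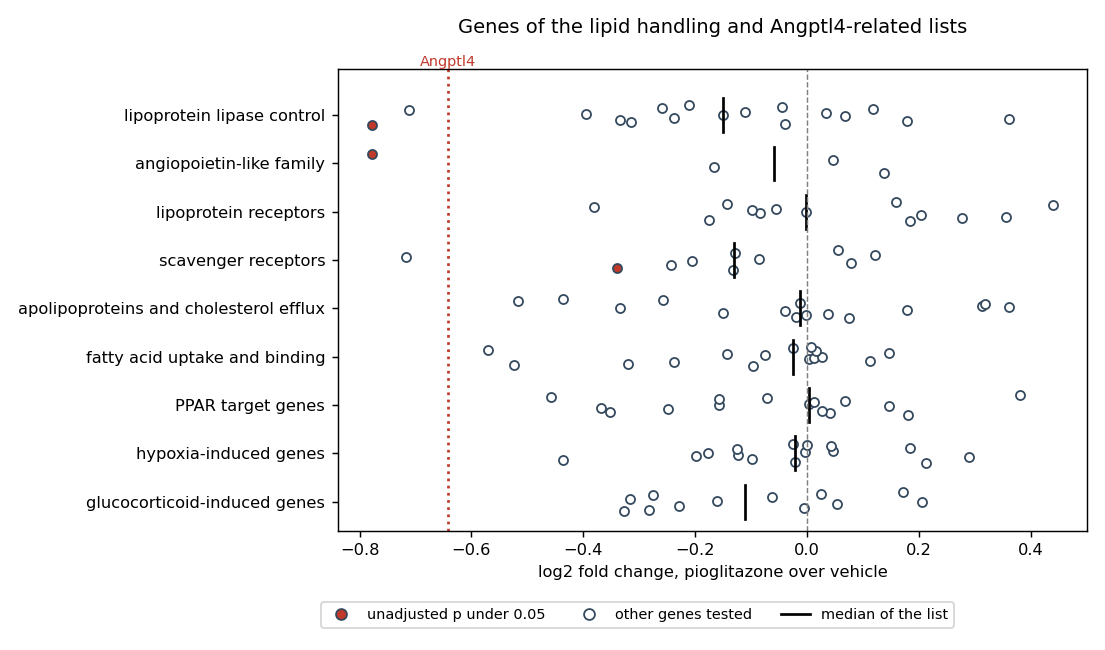
Log2 fold change of pioglitazone over vehicle for each tested gene (1 point per gene, its brightest probe) of 9 lists. Filled points are at unadjusted p under 0.05, vertical bars are list medians and the dotted line is Angptl4 at -0.64. The filled points are Angptl8, in both of its lists, and Colec12.

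The genes whose log2 signal was most like that of Angptl4 over the 8 arrays, among 16001 genes, were Ikbip (r = 0.95), Zranb2 (0.95), Lrrc26 (0.94), Ankrd44 (0.94) and Aimp2 (0.92). They were picked as the 5 highest and have no p. With group means removed their r with Angptl4 ran from 0.82 to 0.88. Ikbip, which encodes a protein that binds an inflammatory kinase, had means of 9.70 ± 1.04 in pioglitazone-treated and 12.9 ± 1.9 in vehicle-treated mice (SD, n = 4 each). Aimp2, a scaffold protein of the aminoacyl-tRNA synthetase complex, had means of 11.2 ± 1.1 in pioglitazone-treated and 14.0 ± 1.7 in vehicle-treated mice. Zranb2 lay nearer to the limit of sensitivity of 0.2, with means of 0.318 in pioglitazone-treated and 0.436 in vehicle-treated mice. Ankrd44 had a mean under that limit in pioglitazone-treated mice (0.178) and of 0.269 in vehicle-treated mice. It passed the filter only through the vehicle-treated group, so its likeness to Angptl4 rests partly on values below the limit.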

How the data were processed

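Ovarian RNA of each mouse (4 pioglitazone-treated, 4 vehicle-treated) was hybridized to its own CodeLink mouse array. The deposited values are linear intensities, 1 for each probe of an array. Per the methods, the authors corrected background with CodeLink software and scaled every slide to its median in GeneSpring. A further division of every gene by its own median is described there, but the deposited values do not show it. The code -9999 (47 to 211 spots per array) was read as missing.

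Arrays were rescaled to a median of 1 and floored at 0.05. The log2 values were analysed in limma 3.58.1 under R 4.3.3 (lmFit, eBayes). A probe was tested if both groups had 3 or more values and either group averaged 0.2 or higher, which left 30634 of 36227. Benjamini-Hochberg adjustment ran over all probes tested. The p-values measure the spread between mice, and 4 arrays per group limit the precision. Probes were named from the platform annotation (21615 with 1 gene, 681 with several, 13931 with none), with symbols updated through RefSeq gene IDs. In lists each gene entered with its brightest probe.

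Named are every probe of the 9 genes, list genes at unadjusted p under 0.05 or else the 2 with the smallest p, and the 5 genes most correlated with Angptl4. Gpihbp1, Apoc2, Plin2, Pdk4, the other angiopoietin-like genes, Scarb1, Pcsk5, Lsr, Nr1h3, Slc27a3 and the marker genes were named after their values were seen. The members and lists were chosen with earlier results of these data known. After removal of group means, arrays with the same number correlated at 0.515, 0.181, 0.274 and 0.232 for numbers 1 to 4. Arrays with different numbers ran from -0.528 to 0.369, the highest for pioglitazone 3 with vehicle 2. The labels state no pairing, so taking the number as a pair was a choice made from these same data. The number was used as a block in 1 alternative. The fit was tested on simulated data. Other alternatives were 2 other floors, quantile, cyclic loess or no scaling, 2 other filters (none, and 0.2 or higher on every array, the stricter filter), an intensity trend, array weights, the methods' t-test, a test on linear values, the mean over the probes of Vldlr, and each array left out in turn. Untreated BL mice were not analysed here.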

Additional observations from a re-analysis of the deposited data

How the results depend on the processing

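The log2 fold change of Angptl4 stayed negative and at unadjusted p under 0.05 in all 20 alternatives, from -0.75 to -0.55 with 1 array left out and at -0.51 and -0.53 with quantile and cyclic loess normalization. The number of the 7 probes called was 1 with all arrays and ran from 1 to 3 with 1 array left out, the 3 being without pioglitazone replicate 1 (Lrp1 and Vldlr added). It was 2 with an intensity trend, the methods' t-test and a test on linear values (Olr1 added in each), and with array weights and the replicate block (Lrp1 added in both). Lpl ranged from -0.069 to 0.373 with 1 array left out and changed sign without pioglitazone replicate 1 (-0.069) and without vehicle replicate 3 (-0.015). With 1 array left out, 0 to 3 genes of the lipoprotein lipase list and 0 to 2 of the glucocorticoid list were called, and 0 or 1 in each of the other 7 lists. Over all probes, 1685 were called at unadjusted p under 0.05, against 2635 with the replicate block and 737 to 2443 with 1 array left out, the lowest without pioglitazone replicate 4. The methods' t-test called 2130. After adjustment 0 passed in limma and in each alternative. The 1685 split into 603 higher and 1082 lower, against 691 and 799 with quantile and 723 and 823 with cyclic loess normalization, and Angptl4, Lrp1, Olr1 and Apoe stayed lower under both, Lrp1 at -0.22 and -0.27 and Apoe at -0.11 and -0.18. The replicate block added no other call among the 7 probes. The cause of these changes was not tested.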
